A study of Mus musculus with 12 samples.

Results

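Leptin and 5 other proteins that fat cells secrete into blood and tissue (adipokines), together with the leptin receptor, were followed in mouse skin by their mRNA. The 7 genes were Lep (leptin), Adipoq (adiponectin), Retn (resistin), Cfd (adipsin, or complement factor D), Rarres2 (chemerin), Rbp4 (retinol binding protein 4) and Lepr (leptin receptor), out of 52636 genes in the count table. Each was found as 1 row by its Ensembl identifier, and all 7 passed the filter on low counts that left 17993 genes for testing. The group of genes was chosen by earlier results of these same libraries on Lep, whose levels in LL37 skin against LL37 + RAPA skin and against control skin were the values used. Each comparison shares libraries with those values, so Lep is described without a test throughout, and counts of genes are over the 6 others.

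RNA was sequenced from the skin of female BALB/c mice in 4 groups of 3 independent biological samples. Control mice received intradermal vehicle and LL37 mice received LL37, the active peptide of human cathelicidin, in the back skin. In the study's methods this rosacea-like model uses mice aged 8 weeks and injections over 2 days. In both arms mice were given either vehicle (groups control and LL37) or rapamycin (RAPA), which blocks the growth-regulating kinase mTORC1 (groups control + RAPA and LL37 + RAPA), which the methods describe for BALB/c mice as intraperitoneal at 4 mg/kg per day. All mice were wild type, the skin was taken whole, and neither pooling nor a sequencing batch is stated. Whole skin holds epidermis, dermis, the fat layer beneath it and a sheet of muscle, so that in these bulk samples fewer cells of a type and less RNA per cell cannot be told apart.

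The libraries held 15734559 to 23271784 counts, and 3 counts, taken as the floor, correspond to between 0.123 and 0.184 CPM (read counts divided by the library size that TMM scaling gives), a limit that covers counting error only. LL37 replicate 3 stood apart from the other LL37 libraries, at 64.4 on the first principal component against 134 and 129. The members' counts lay between 32 and 15411 per library, all above the floor. A gene counted as a DEG where its adjusted p-value (edgeR, quasi-likelihood F-test, Benjamini-Hochberg over the 17993 genes) was below 0.05 and its log2 fold change beyond 1 in either direction.

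White fat cells under the skin store triglyceride and release adipokines, which act on distant tissues and on neighbouring cells. Leptin reports fat stores to the brain through the leptin receptor and the kinase JAK2, which activates the transcription factor STAT3, and it also acts on immune and epithelial cells. Adiponectin acts through its own receptors on glucose and lipid use, adipsin starts the alternative complement pathway by cleaving factor B, chemerin attracts leukocytes, retinol binding protein carries vitamin A, and resistin in the mouse is made mainly by fat cells.

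In control skin the adipokines differed widely in level. Per kilobase of exon, Cfd stood highest at 434 ± 193 CPM (SD, n = 3), followed by Adipoq at 74.7 ± 30.3, Rarres2 at 35.6 ± 12.5, Rbp4 at 21.8 ± 6.08 and Retn at 20.5 ± 6.47. Lep at 2.60 ± 1.72 and Lepr at 2.12 ± 0.0649 were lowest. Rbp4 and Retn, and likewise Lep and Lepr, did not differ beyond their spread. In LL37 skin Rarres2 took second place, at 89.1 ± 17.9 CPM per kilobase, above Adipoq at 17.6 ± 10.7 and not separable from Cfd at 127 ± 79.4. In LL37 + RAPA skin Adipoq at 114 ± 8.39 and Rarres2 at 108 ± 30.7 lay within their spread of each other, and Lep at 16.6 ± 4.22 stood beside Rbp4 at 13.3 ± 1.87. All further levels are in CPM without the length.

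**Figure D1:**
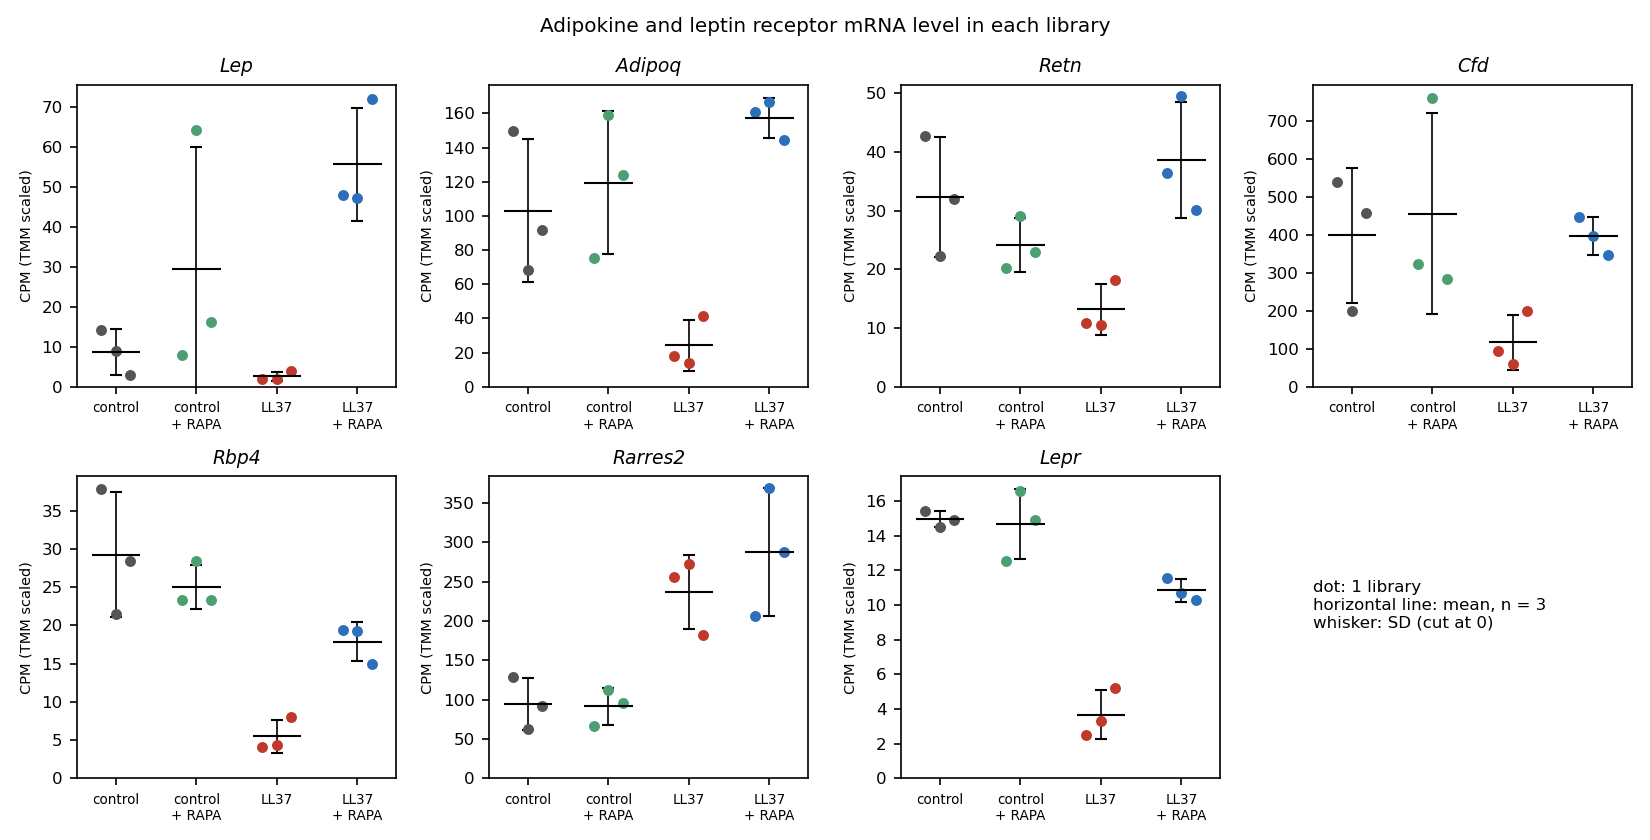
Level of each gene (CPM, scaled with TMM factors, linear axis from 0) in the 12 libraries by group, where each dot is 1 library, each line a mean and each whisker an SD of 3 libraries. The 3 LL37 libraries lie below the 3 control libraries for Adipoq, Retn, Rbp4 and Lepr and above them for Rarres2, and the 3 LL37 + RAPA libraries of Lep lie between 47.2 and 72.0 CPM.

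Leptin was lowest in LL37 skin and highest in LL37 skin given RAPA. Lep (ENSMUSG00000059201, chromosome 6 from 29060220 to 29073877, plus strand, GRCm38) read 14.3, 8.92 and 2.84 CPM in control replicates 1 to 3, 2.01, 1.96 and 3.86 in LL37 replicates, 47.9, 47.2 and 72.0 in LL37 + RAPA replicates, and 8.08, 64.4 and 16.1 in control + RAPA replicates. All LL37 + RAPA libraries were thus above all control and all LL37 libraries, whereas control replicate 3 fell inside the LL37 range and control + RAPA replicate 2 inside the LL37 + RAPA range. The fitted log2 difference was -4.39 (standard error, SE, 0.78) for LL37 against LL37 + RAPA, -1.71 (SE 0.76) for LL37 against control and 2.68 (SE 0.70) for LL37 + RAPA against control, given without a test. Of these, leaving out LL37 replicate 3 gave -4.80, -2.10 and 2.71.

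For Lep, RAPA alone gave a mean of 29.5 ± 30.4 CPM (SD, n = 3) against 8.70 ± 5.75 in control skin, and the libraries overlapped. The log2 difference of control + RAPA against control was 1.77 (SE 0.69), given without a test. With control + RAPA replicate 2 left out, that difference was 0.47. Between LL37 + RAPA and control + RAPA skin the log2 difference was 0.91 (SE 0.65), likewise without a test. Without control + RAPA replicate 2 it was 2.20, so that 1 library set much of its size.

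Adiponectin, resistin, adipsin and retinol binding protein were all lower in LL37 skin, against control and against LL37 + RAPA alike. Adipoq (ENSMUSG00000022878, chromosome 16 from 23146536 to 23158028, plus strand) encodes the insulin-sensitizing adiponectin. It read 149, 68.1 and 92.0 CPM in control replicates and 17.8, 13.9 and 41.3 in LL37 replicates. In LL37 + RAPA skin it read 161, 167 and 145. No LL37 library reached any control or LL37 + RAPA library. The log2 fold change was -2.08 (SE 0.41, adjusted p = 0.00189, edgeR) against control and -2.69 (SE 0.42, adjusted p = 0.0021, edgeR) against LL37 + RAPA.

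Retn (ENSMUSG00000012705, chromosome 8 from 3655770 to 3660110, plus strand) moved less. It read 42.8, 22.4 and 31.9 CPM in control, 10.9, 10.5 and 18.1 in LL37 and 36.4, 49.5 and 30.1 in LL37 + RAPA replicates, without overlap between LL37 and either of the others. Its log2 fold change was -1.29 (SE 0.28, adjusted p = 0.00356, edgeR) against control and -1.55 (SE 0.28, adjusted p = 0.00419, edgeR) against LL37 + RAPA.

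Cfd (ENSMUSG00000061780, chromosome 10 from 79890853 to 79892655, plus strand) is the protease of the alternative complement pathway. Control replicates read 541, 199 and 459 CPM, LL37 replicates 93.1, 59.4 and 200, and LL37 + RAPA replicates 447, 398 and 348. LL37 replicate 3 just passed control replicate 2, so the libraries overlapped in the first comparison but not in the second. The log2 fold change was -1.77 (SE 0.50, adjusted p = 0.0138, edgeR) against control and -1.76 (SE 0.50, adjusted p = 0.0258, edgeR) against LL37 + RAPA. The first call was lost without control replicate 1 (adjusted p = 0.0525, edgeR), LL37 replicate 1 (0.0548) or LL37 replicate 2 (0.051). The second was lost without LL37 replicate 1 (0.0987), LL37 replicate 2 (0.0798) or LL37 + RAPA replicate 1 (0.0748), 2 (0.0534) or 3 (0.0507). The direction stayed in all of these.

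Rbp4 (ENSMUSG00000024990, chromosome 19 from 38116629 to 38125281, minus strand), the carrier of retinol in blood, fell furthest among the 6 tested genes. It read 37.8, 21.5 and 28.3 CPM in control and 4.14, 4.41 and 7.96 in LL37 replicates, which is a log2 fold change of -2.40 (SE 0.27, adjusted p = 4.77e-05, edgeR). With RAPA it read 19.4, 19.3 and 15.0, above every LL37 library and below every control library. LL37 skin was lower than LL37 + RAPA skin by a log2 fold change of -1.69 (adjusted p = 0.00212, edgeR), and LL37 + RAPA against control gave -0.71 (95% interval -1.25 to -0.17, adjusted p = 0.0833, edgeR), which did not pass.

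Chemerin went the other way. Rarres2 (ENSMUSG00000009281, chromosome 6 from 48569696 to 48572789, minus strand) read 129, 62.5 and 92.1 CPM in control and 66.3, 113 and 96.3 in control + RAPA replicates. It read 255, 272 and 183 in LL37 and 206, 369 and 287 in LL37 + RAPA replicates, so both LL37 groups lay wholly above both groups without LL37. The log2 fold change was 1.32 (SE 0.29, adjusted p = 0.00363, edgeR) for LL37 against control, 1.60 (SE 0.29, adjusted p = 0.00358, edgeR) for LL37 + RAPA against control and 1.65 (SE 0.29, adjusted p = 0.0025, edgeR) for LL37 + RAPA against control + RAPA. LL37 against LL37 + RAPA gave -0.28, with a 95% interval from -0.91 to 0.35 (adjusted p = 0.503, edgeR). Exons of Rarres2 share 892 bases with Lrrc61 on the opposite strand, and no source used here says whether counting used the strand. Lrrc61 stood at 11.99 ± 1.72 CPM in control and 8.45 ± 0.378 in LL37 skin (n = 3 each).

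The leptin receptor fell as well. Lepr (ENSMUSG00000057722, chromosome 4 from 101717404 to 101815352, plus strand) read 15.4, 14.5 and 14.9 CPM in control replicates, the tightest of the 7 genes. It read 2.50, 3.31 and 5.23 in LL37 and 11.6, 10.7 and 10.3 in LL37 + RAPA replicates, and none of these groups overlapped. The log2 fold change was -2.01 (SE 0.22, adjusted p = 4.6e-05, edgeR) against control and -1.55 (SE 0.22, adjusted p = 0.00167, edgeR) against LL37 + RAPA. LL37 + RAPA against control gave -0.46 (95% interval -0.92 to -0.01, adjusted p = 0.174, edgeR). Counts per gene do not separate the long signaling form of the receptor from its short forms.

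Of the 6 genes other than Lep, 5 fell and 1 rose in LL37 against control skin, where 10.8% of all tested genes were lower and 8.73% higher DEGs. In LL37 against LL37 + RAPA skin, 5 were lower and 0 higher, where the shares over all tested genes were 5.8% and 4.33%. The median log2 fold change of the 6 was -1.89 and -1.62 in these comparisons, and that of all tested genes -0.005 and -0.004. Both comparisons use the same LL37 libraries. The 6 genes were chosen with earlier results of these libraries known, so their counts beside the shares, here and below, are a description. Without LL37 replicate 3 the counts were 6 and 5 of 6, as with it. The DEGs over all tested genes rose in that fit, from 3516 to 4287 and from 1823 to 2727.

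**Figure D2:**
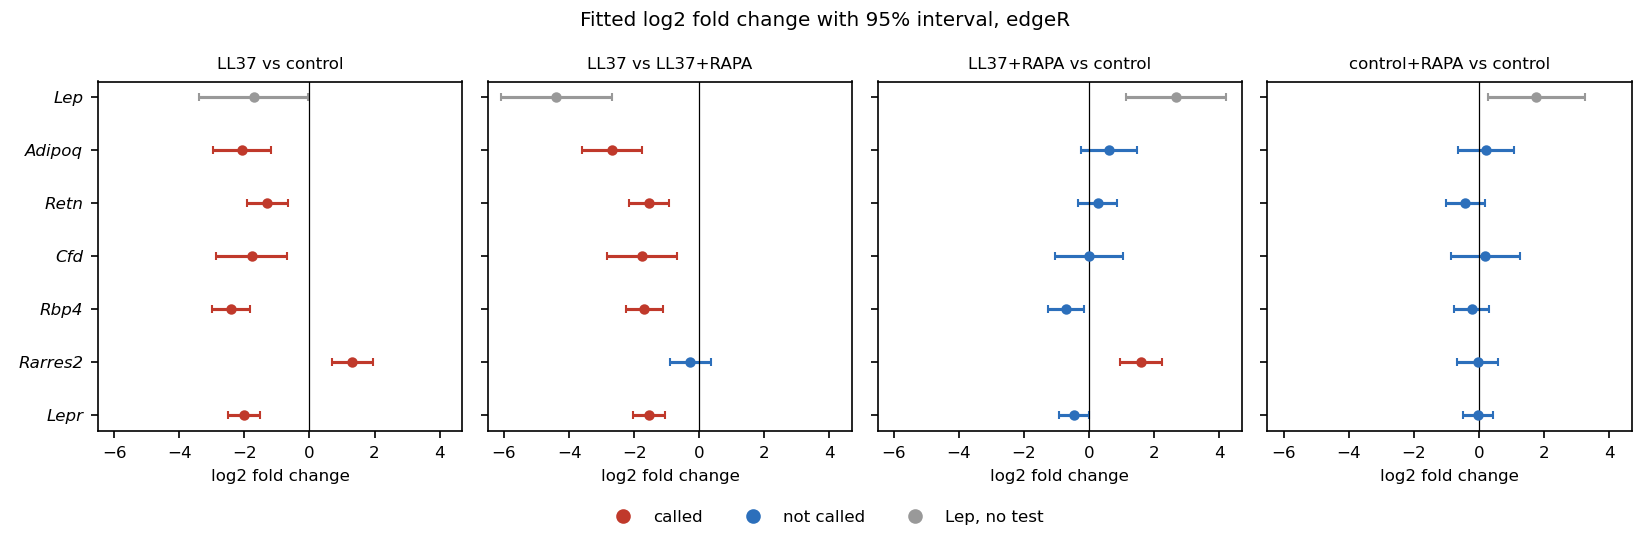
Fitted log2 fold change (x axis) of the 7 genes in 4 comparisons with 95% intervals from edgeR, red for DEGs, blue for genes that were not DEGs and gray for Lep, which was not tested. The gray bars are not to be read as tests, since Lep was chosen by values of these libraries. Adipoq, Retn, Cfd, Rbp4 and Lepr are red and left of 0 in both comparisons of LL37 skin, and Rarres2 is red and right of 0 against control in LL37 and in LL37 + RAPA skin.

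Against control skin, LL37 + RAPA skin had Rarres2 higher and none of the other 5 tested genes as a DEG, where 2.15% of all tested genes were higher and 4.35% lower DEGs. The log2 fold changes were 0.61 for Adipoq (95% interval -0.25 to 1.47), 0.26 for Retn (-0.34 to 0.86) and -0.01 for Cfd (-1.06 to 1.05), and the intervals of Adipoq and Cfd reach past 1. The sign for Cfd turned under scaling by library size alone (0.12). Against control + RAPA skin Rarres2 was likewise the DEG among the 6 tested members, where 4.07% of all tested genes were higher and 4.32% lower DEGs. Retn gave 0.68 there (95% interval 0.08 to 1.28, adjusted p = 0.115, edgeR) with no overlap between libraries.

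RAPA without LL37 made 0 of 17993 genes a DEG by edgeR (0% of tested genes), with 1556 at an unadjusted p under 0.05, while DESeq2 called 53 and edgeR without the filter on low counts called 8. None of the 6 tested members was among the DEGs of any of these fits. For the 6 genes other than Lep, the log2 fold change of control + RAPA against control lay between -0.42 for Retn (95% interval -1.03 to 0.18) and 0.21 for Adipoq (-0.64 to 1.07). The group level of Lepr was 14.7 ± 2.04 CPM with RAPA and 15.0 ± 0.457 without (SD, n = 3 each).

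Whether the LL37 effect differed with RAPA was tested with the interaction, the LL37 effect without RAPA minus that with RAPA. Of the 6 genes, 4 had a negative interaction that passed, where 1.73% of all tested genes were negative and 0.65% positive. The values were -1.57 for Lepr (adjusted p = 0.0255), -2.48 for Adipoq (adjusted p = 0.04), -1.97 for Retn (adjusted p = 0.0293) and -1.91 for Rbp4 (adjusted p = 0.0246, all edgeR). Cfd gave -1.57 (95% interval -3.07 to -0.07, adjusted p = 0.205, edgeR) and Rarres2 -0.32 (95% interval -1.21 to 0.56, adjusted p = 0.681, edgeR), and Lep gave -2.63 (SE 1.00) without a test. These calls were often lost with 1 library left out. In the 6 fits where 0 of these genes passed, the interaction DEGs over all tested genes also fell, from 429 to between 2 and 180. Without LL37 replicate 3 they rose to 1760. Among 6 genes, 0 passed without control replicate 1 or 3, without control + RAPA replicate 1, 2 or 3 or without LL37 + RAPA replicate 1, 1 passed without LL37 replicate 1, and 2 passed without LL37 replicate 2 or LL37 + RAPA replicate 2 or 3. Without LL37 replicate 3, 5 passed, with Cfd added (-2.19, adjusted p = 0.0304, edgeR). For the 4 genes the adjusted p where a call was lost stayed between 0.0514 and 0.101, with every value still negative.

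For a view of the sequence before the start sites of 4 fat-cell adipokines whose levels were lower in LL37 than in LL37 + RAPA skin, the 250 bases upstream of each RefSeq transcript start (GRCm38.p6, plus strand, 5′ to 3′) are printed for Lep at chr6:29059971-29060220, Adipoq at chr16:23146286-23146535, Retn at chr8:3655520-3655769 and Cfd at chr10:79890603-79890852. Capitals mark matches to 5 short motifs on either strand. They were TTGCGCAA, a palindromic site for C/EBP transcription factors, and CCAAT, the box that bears its own name. Further motifs searched were GGGCGG, known as the GC box and bound by Sp1, and TATAA, the element near which many transcripts start. The last was ACGTG, the core of the hypoxia response element.
Lep: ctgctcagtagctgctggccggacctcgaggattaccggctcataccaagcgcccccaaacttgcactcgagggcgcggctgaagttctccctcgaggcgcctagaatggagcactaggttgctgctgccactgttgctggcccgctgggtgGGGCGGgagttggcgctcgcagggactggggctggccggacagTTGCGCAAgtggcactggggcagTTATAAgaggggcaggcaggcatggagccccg
Adipoq: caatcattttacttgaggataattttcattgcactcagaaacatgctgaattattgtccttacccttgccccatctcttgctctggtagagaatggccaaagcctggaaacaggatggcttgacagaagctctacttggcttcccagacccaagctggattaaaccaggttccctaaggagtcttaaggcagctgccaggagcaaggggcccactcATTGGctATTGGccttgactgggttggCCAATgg
Retn: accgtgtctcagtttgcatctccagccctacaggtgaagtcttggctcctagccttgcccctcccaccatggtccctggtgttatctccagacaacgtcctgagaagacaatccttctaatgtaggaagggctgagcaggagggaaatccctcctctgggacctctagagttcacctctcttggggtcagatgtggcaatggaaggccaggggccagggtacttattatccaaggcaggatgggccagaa
Cfd: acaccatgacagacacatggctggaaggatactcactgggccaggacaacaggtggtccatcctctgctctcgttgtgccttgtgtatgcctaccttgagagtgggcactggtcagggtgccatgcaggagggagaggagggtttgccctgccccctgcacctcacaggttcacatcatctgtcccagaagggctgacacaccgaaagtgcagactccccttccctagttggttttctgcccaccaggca
The Lep window held TTGCGCAA with its first base 55 bases before the start, which 0.164% of 32851 RefSeq windows of this length held. C/EBP factors are known regulators of fat cell genes. It also held GGGCGG at 98 bases (32.7% of windows) and TATAA on both strands at 32 and 31 bases, overlapping in a single run (22.8% of windows). The Adipoq window held CCAAT at 34, 27 and 7 bases (33.8% of windows). The Retn and Cfd windows held none of the 5, and ACGTG, which 16.6% of windows held, was in none of the 4 printed windows. Rbp4, also lower in LL37 than in LL37 + RAPA skin, has 2 windows, which are not printed. One held CCAAT at 162 bases, and the other ACGTG at 189, GGGCGG at 114 and 99 and TATAA at 28. Of the 7 genes, 6 had a window in the RefSeq table used. A match is a run of letters and not a measured binding site.

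Fat cell genes other than adipokines were lower in the same libraries. Of 20 genes of fat cells, 15 fell in LL37 against control skin and 17 were lower than in LL37 + RAPA skin, with median log2 fold changes of -1.42 and -2.0 and none higher. Over all tested genes, 10.8% were lower DEGs in the first comparison and 5.8% in the second. This list, too, was chosen with earlier results of these libraries known, so its counts are a description. Plin1, the perilipin that coats the fat droplet, stood at 105 ± 57.0 CPM in control, 23.65 ± 12.1 in LL37 and 196 ± 31.8 in LL37 + RAPA skin (SD, n = 3), or -2.14 against control (adjusted p = 0.00197, edgeR) and -3.05 against LL37 + RAPA (adjusted p = 0.00167, edgeR) on the log2 scale. Adig (adipogenin) fell by 1.21 on the log2 scale (adjusted p = 4.7e-05, edgeR), and Gpd1, which makes the glycerol backbone of triglyceride, fell by 1.43 (adjusted p = 0.000106, edgeR). Cebpa and Pparg, which encode the main transcription factors of fat cells, gave -0.23 (adjusted p = 0.326, edgeR) and -0.75 (adjusted p = 0.00741, edgeR) and were not DEGs. The summed level of the 20 genes ranged from 3708 to 4792 CPM in control, 1368 to 2333 in LL37, 5038 to 5260 in LL37 + RAPA and 4160 to 6919 in control + RAPA libraries, and none of the 20 was at 0 in a whole group. Muscle also uses some of them, such as Cd36 and Lpl. The part of muscle in the values of this list, against which the members are also set below, was not tested.

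Skeletal muscle, neutrophil and macrophage genes moved too, whereas the sums of fibroblast and keratinocyte genes overlapped between control and LL37 libraries. The summed level of 15 skeletal muscle genes ranged from 30660 to 44570 CPM in control and from 31.5 to 725 in LL37 libraries, and from 2652 to 5989 in LL37 + RAPA libraries. That of 10 neutrophil genes ranged from 64.0 to 139 in control, 320 to 2729 in LL37 and 201 to 564 in LL37 + RAPA libraries, and that of 10 macrophage genes from 790 to 1372, 2176 to 2478 and 1798 to 2925. The 10 fibroblast genes summed to between 3152 and 6617 CPM in control and 4393 and 5718 in LL37 libraries, and the 10 keratinocyte genes to between 32430 and 42070 and 35670 and 50250. The part of these cell types in the adipokine values was not tested.

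Set against the 20 fat cell genes in the same library, the members separated. Retn stood at 0.784 ± 0.158% of their summed CPM in control, 0.720 ± 0.0939% in LL37 and 0.757 ± 0.205% in LL37 + RAPA skin (SD, n = 3), with 0.452 ± 0.0326% in control + RAPA skin. Lep stood at 0.205 ± 0.116%, 0.141 ± 0.0263% and 1.08 ± 0.247%, respectively, and at 0.480 ± 0.394% in control + RAPA skin. Each LL37 + RAPA library, from 0.932 to 1.37%, was above each library of the other 3 groups, the nearest being control + RAPA replicate 2 at 0.930%. Rarres2 stood at 2.28 ± 0.528% in control, 14.0 ± 6.03% in LL37 and 5.61 ± 1.61% in LL37 + RAPA skin, with LL37 libraries from 7.83 to 19.9% and control libraries from 1.69 to 2.69%. Adipoq was at 2.47 ± 0.642%, 1.26 ± 0.440% and 3.08 ± 0.292%, and its 3 LL37 libraries were below all others. Adipoq in control + RAPA skin was at 2.18 ± 0.327% and Rarres2 at 1.70 ± 0.163%. Rbp4 and Lepr were lower than control in all 3 other groups, without overlap, Rbp4 at 0.710 ± 0.113%, 0.299 ± 0.0582% and 0.350 ± 0.0567% and Lepr at 0.371 ± 0.0427%, 0.202 ± 0.0541% and 0.212 ± 0.0172% in control, LL37 and LL37 + RAPA skin. In control + RAPA skin they were at 0.476 ± 0.0767% and 0.278 ± 0.0332%. Cfd overlapped between the groups, at 9.66 ± 3.74%, 6.04 ± 2.22% and 7.79 ± 1.13%, with 8.12 ± 2.72% in control + RAPA skin. These ratios are descriptions. Against Plin1, Cidec, Fabp4 and Lipe alone, Lep was at 0.737 ± 0.401%, 0.625 ± 0.0883% and 2.87 ± 0.556% and Rarres2 at 8.11 ± 1.01%, 63.3 ± 28.7% and 15.1 ± 5.02%. Some orders changed with these 4 genes. Control + RAPA replicate 2 (2.51%) passed the lowest LL37 + RAPA library for Lep (2.48%), and LL37 libraries of Adipoq overlapped those of both RAPA groups. Control libraries of Lepr overlapped those of LL37 and of control + RAPA skin. LL37 + RAPA libraries of Rbp4 (0.729 to 1.07%) and Lepr (0.501 to 0.6%) lay below all LL37 libraries (from 1.08% and 0.655%). Against the 20 genes these 2 groups overlapped for both. Rbp4 was at 2.54 ± 0.175%, 1.33 ± 0.213% and 0.936 ± 0.182% in control, LL37 and LL37 + RAPA skin. Cfd was at 34 ± 11.1%, 26.7 ± 8.44% and 20.8 ± 3.34%, respectively. Retn was at 2.79 ± 0.295%, 3.21 ± 0.329% and 2.03 ± 0.657% in control, LL37 and LL37 + RAPA skin.

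**Figure D3:**
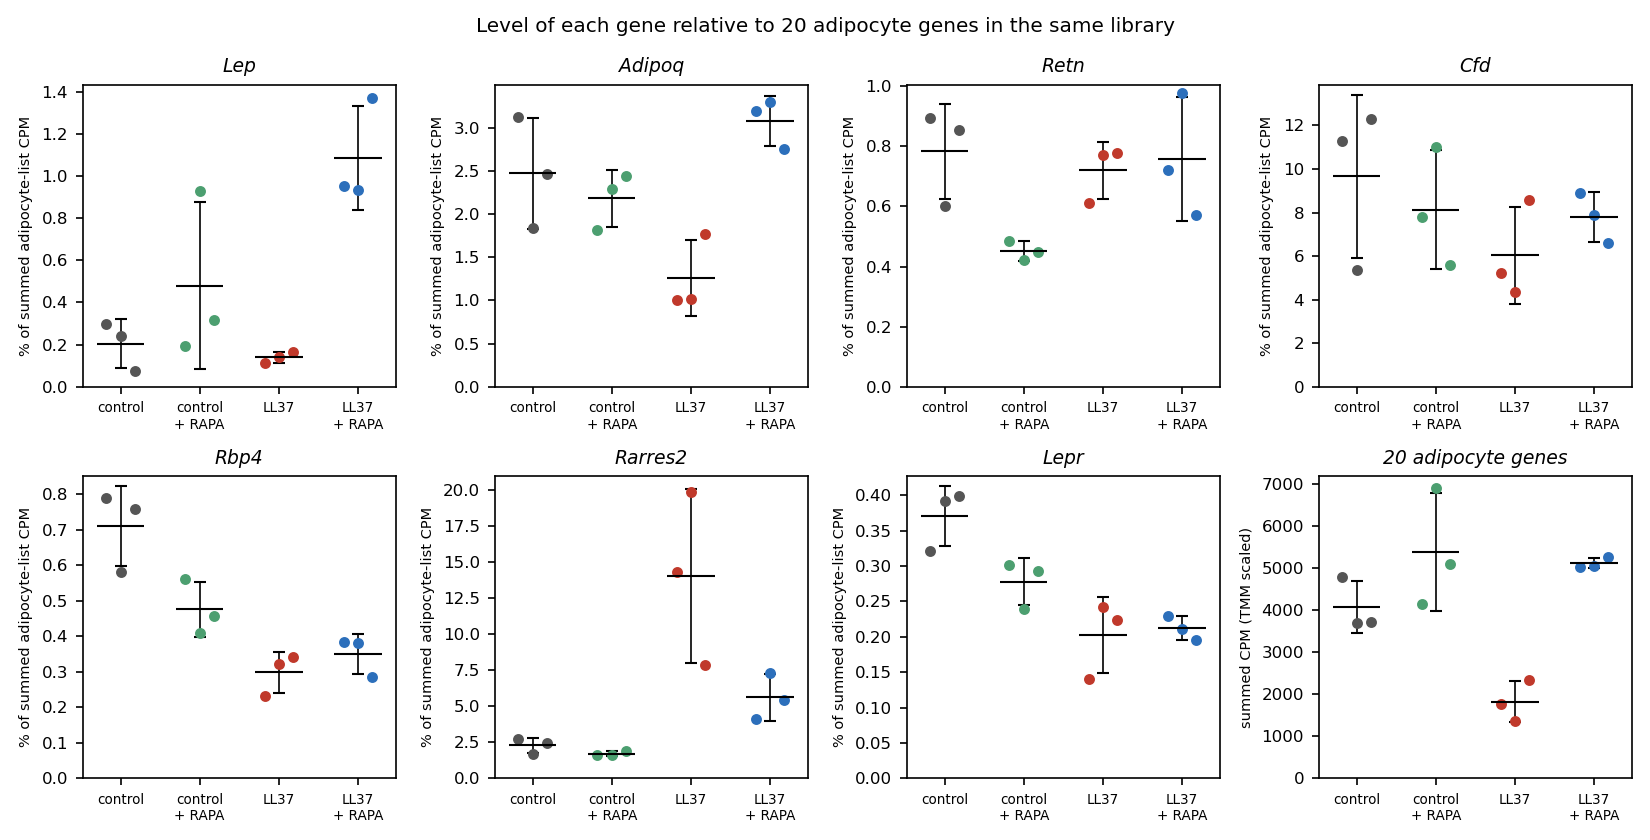
Level of each gene as a percent of the summed CPM of 20 fat cell genes in the same library (y axes, linear from 0), with the summed CPM itself in the last panel, where dots are libraries, lines means and whiskers SDs of 3. Lep is highest in the LL37 + RAPA libraries (0.932 to 1.37%), Rarres2 in the LL37 libraries (7.83 to 19.9%), and Retn has like means in control, LL37 and LL37 + RAPA skin.

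Over the 12 libraries the members' log2 CPM went together to different degrees, described by Pearson's r with libraries that share groups. Lepr and Rbp4 were the closest pair (r = 0.981), followed by Adipoq with Cfd (0.933) and with Retn (0.929). Lep was closest to Adipoq (0.847) and less close to Lepr (0.608), and Rarres2 lay between -0.587 with Lepr and 0.142 with Lep. Among all tested genes, those nearest to Adipoq were Plin1 (0.990), Ankef1 (0.989) and Slc7a10 (0.989). Nearest to Lep were Prtn3 (0.952), Ccnd2 (0.95), Trf (0.947), Adcy5 (0.946) and Scarb1 (0.942). Lepr was nearest to Abcb1a (0.990), Amigo2 (0.987) and Lims2 (0.985), and Rbp4 to Ttc28 (0.994), Aox1 (0.986) and Car3 (0.984). Retn was nearest to Ccdc80 (0.963), Heg1 (0.955) and Katnal1 (0.953), Cfd to Tdrkh (0.966), Ctif (0.961) and Agt (0.961), and Rarres2 to Pid1 (0.984), Ccl9 (0.980) and Tgfb1 (0.968).

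**Figure D4:**
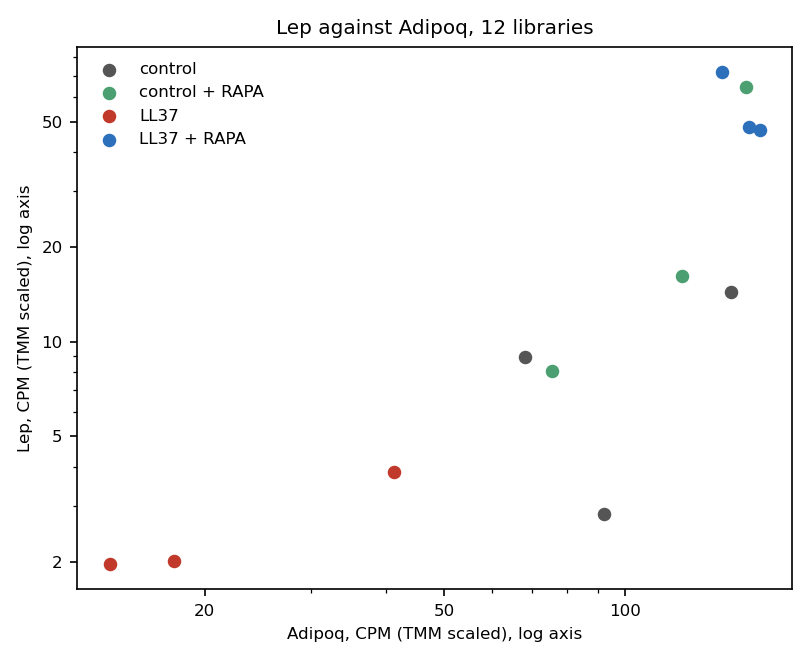
Lep (y axis) against Adipoq (x axis) in CPM on log axes, 1 point per library, colored by group. The 3 LL37 libraries lie at the lower left, and the 3 LL37 + RAPA libraries lie at 145 to 167 CPM of Adipoq with 47.2 to 72.0 CPM of Lep.

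Downstream of the leptin receptor, 3 of 12 signaling genes rose and 1 fell in LL37 against control skin (all tested genes: 8.73% and 10.8%). Against LL37 + RAPA skin, 2 were higher (all tested genes: 4.33%). The median log2 fold changes were 0.23 and 0.23. Socs3, the STAT3-induced inhibitor of leptin receptor and cytokine signaling, read 84.1, 84.3 and 88.9 CPM in control, 749, 718 and 177 in LL37 and 102, 192 and 140 in LL37 + RAPA replicates. LL37 replicate 3 was thus apart from the others and within the LL37 + RAPA range. Its log2 fold change was 2.68 (adjusted p = 0.000774, edgeR) against control and 1.92 (adjusted p = 0.0109, edgeR) against LL37 + RAPA, the latter lost without LL37 + RAPA replicate 1 (adjusted p = 0.0517, edgeR) or when only the groups compared were fitted (0.0523). Stat3 rose by 1.44 (adjusted p = 0.000589, edgeR) and stood 1.15 above LL37 + RAPA skin on the log2 scale (adjusted p = 0.00646, edgeR), a value that came under the limit of 1 without LL37 replicate 1. Jak2 rose by 1.37 (adjusted p = 0.00418, edgeR), and Irs2, an adaptor of insulin and leptin signaling, fell by 1.301 (adjusted p = 9.52e-05, edgeR). Leprot, whose product holds the receptor inside the cell, stood at 79.5 ± 3.68 CPM in control and 85.2 ± 7.36 in LL37 skin and was not a DEG. These genes serve many cytokines besides leptin.

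The receptors of adiponectin were not DEGs in any comparison. Adipor1 stood at 265 ± 13.9 CPM in control, 239.7 ± 8.67 in LL37, 239 ± 9.71 in LL37 + RAPA and 322 ± 14.4 in control + RAPA skin (SD, n = 3), and Adipor2 at 164.5 ± 11.01, 153 ± 18.5, 151 ± 9.47 and 185 ± 13.1. For LL37 + RAPA against control + RAPA, Adipor1 gave -0.43 on the log2 scale (adjusted p = 0.00341, edgeR), under the limit on fold change but without overlap of libraries. Adipor2 gave -0.29 there (adjusted p = 0.0763, edgeR). Cdh13, which binds adiponectin on endothelium and muscle, stood at 99.99 ± 2.37 CPM in control and 64.9 ± 11.6 in LL37 skin. This was -0.62 on the log2 scale (adjusted p = 0.002, edgeR) under the limit on fold change. Of 8 genes of adiponectin receptors, signaling and secretion, 1 rose and 1 fell in LL37 against control skin (all tested genes: 8.73% and 10.8%). Against LL37 + RAPA skin, 1 was higher (all tested genes: 4.33%). The median log2 fold changes were 0.04 and 0.09. Ero1l, an oxidase of the endoplasmic reticulum that takes part in adiponectin secretion, rose by 2.44 (adjusted p = 3.91e-06, edgeR). Prkaa2, a catalytic subunit of the kinase AMPK, fell by 3.56 (adjusted p = 9.87e-08, edgeR) and was lower than control in LL37 + RAPA skin too (-2.60, adjusted p = 8.34e-07, edgeR). All 14 tested skeletal muscle genes, of a tissue that expresses Prkaa2, also fell in LL37 skin, and their part in its value was not tested.

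Receptors of chemerin differed among themselves. Cmklr1, its signaling receptor on macrophages and dendritic cells, stood at 18.4 ± 6.14 CPM in control and 24.7 ± 4.32 in LL37 skin (log2 fold change 0.43, adjusted p = 0.186, edgeR). Ccrl2, which binds chemerin without signaling, read 3.99, 2.87 and 8.64 CPM in control, 85.2, 42.9 and 3.86 in LL37 and 2.66, 4.54 and 3.25 in LL37 + RAPA replicates. LL37 replicates 1 and 2 were high and replicate 3 was at the control level. The log2 fold change was 3.09 (adjusted p = 0.00889, edgeR) against control and 3.65 (adjusted p = 0.00975, edgeR) against LL37 + RAPA, the first lost when only the groups compared were fitted (adjusted p = 0.053, edgeR). Gpr1, another chemerin receptor, read 2.27, 2.36 and 1.58 CPM in control and 0, 0.123 and 0.754 in LL37 replicates, with 2 of the LL37 libraries at or under the floor, and 1.33, 2.42 and 1.76 in LL37 + RAPA replicates. It was a DEG against control (adjusted p = 0.00611, edgeR) and against LL37 + RAPA (adjusted p = 0.0175, edgeR), the latter lost without LL37 replicate 2 (0.0582) or LL37 + RAPA replicate 2 (0.052) or when only the groups compared were fitted (0.0849). Of 9 genes of chemerin receptors and processing proteases, 5 passed the filter on low counts. Among these, 1 rose and 1 fell in LL37 against control skin (all tested genes: 8.73% and 10.8%). The same held against LL37 + RAPA skin (all tested genes: 4.33% and 5.8%), with medians of 0.43 and 0.08.

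**Figure D5:**
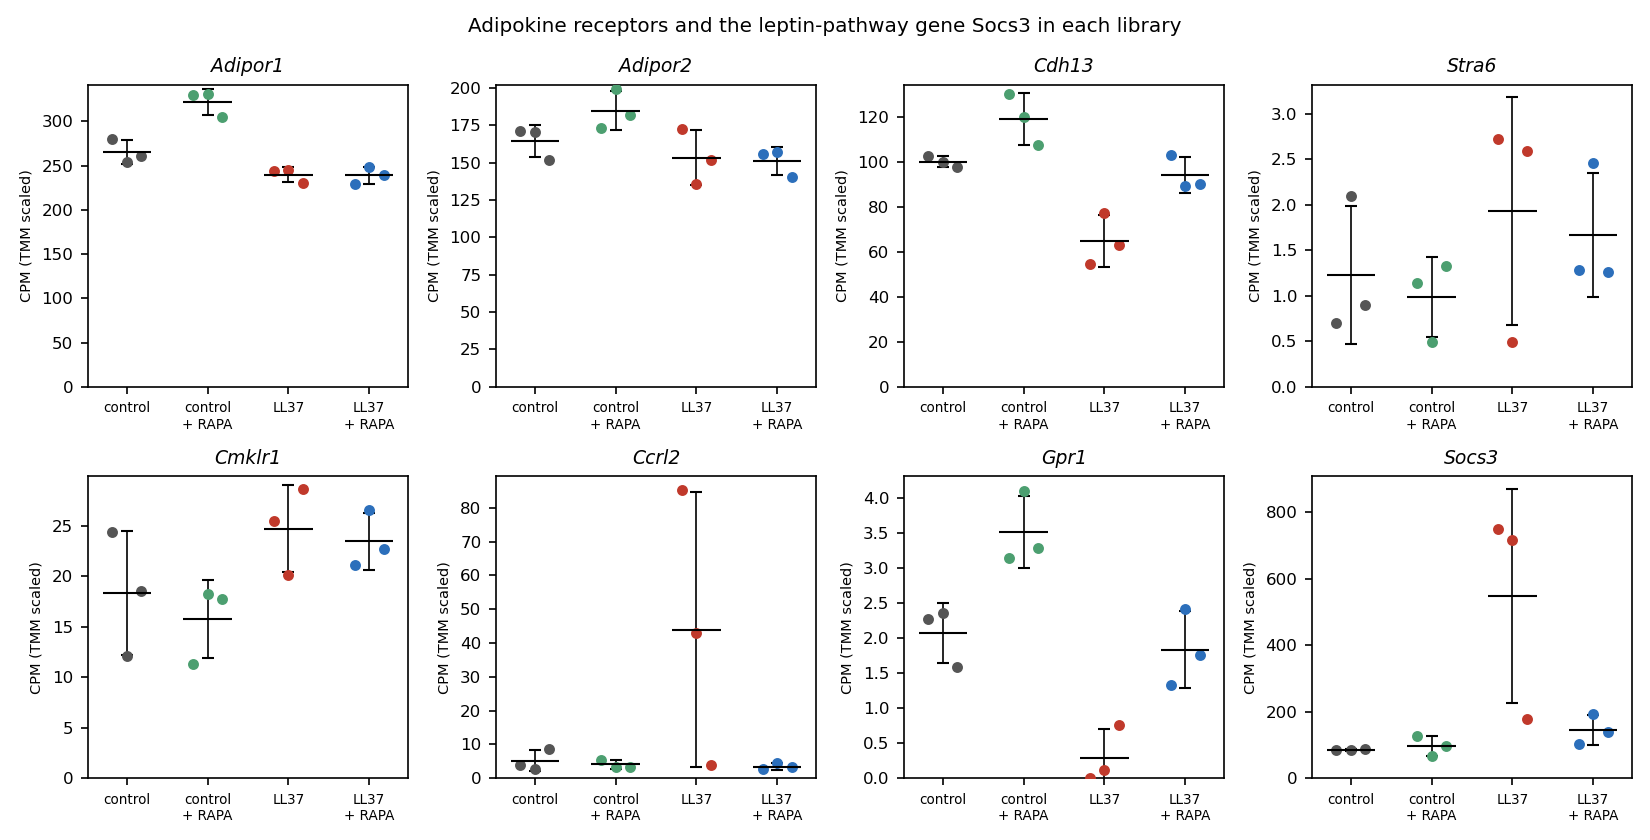
Level (CPM, scaled with TMM factors, linear axis from 0) of receptors for adiponectin (Adipor1, Adipor2, Cdh13), retinol binding protein (Stra6) and chemerin (Cmklr1, Ccrl2, Gpr1) and of Socs3 in each library, with mean lines and SD whiskers of 3 libraries. Ccrl2 and Socs3 are high in LL37 replicates 1 and 2 (85.2 and 42.9 CPM, 749 and 718 CPM) and much lower in LL37 replicate 3 (3.86 and 177 CPM).

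On the retinol side, Stra6, the cell surface receptor of retinol binding protein, was low, at 1.23 ± 0.759 CPM in control and 1.93 ± 1.25 in LL37 skin, and was not a DEG. Of 17 tested genes of retinol uptake, metabolism and receptors, 3 rose and 3 fell in LL37 against control skin (all tested genes: 8.73% and 10.8%). Against LL37 + RAPA skin, 4 were higher and 1 lower (all tested genes: 4.33% and 5.8%), with medians of 0.67 and 0.40. Aldh1a1, which makes retinoic acid, stood at 89.0 ± 14.1 CPM in control, 2.63 ± 2.50 in LL37 and 18.2 ± 1.79 in LL37 + RAPA skin (SD, n = 3). Its log2 fold change was -5.03 (adjusted p = 1.25e-05, edgeR) against control and -2.74 (adjusted p = 0.00238, edgeR) against LL37 + RAPA. Dhrs9, a retinol dehydrogenase, rose by 1.501 (adjusted p = 0.00185, edgeR), and Rarb, a retinoic acid receptor, fell by 2.84 (adjusted p = 0.000286, edgeR) from 1.93 ± 0.307 CPM to near the floor.

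Around adipsin, 3 of 10 tested genes of the alternative complement pathway rose and 2 fell in LL37 against control skin (all tested genes: 8.73% and 10.8%). Against LL37 + RAPA skin, 1 was higher (all tested genes: 4.33%), with medians of -0.02 and 0.02. The receptors of complement fragments C3a and C5a rose, C3ar1 by 2.37 (adjusted p = 0.000146, edgeR) and C5ar1 by 2.58 (adjusted p = 0.000563, edgeR) on the log2 scale, while Cfp (properdin, which stabilizes the convertase) rose by 1.06 (adjusted p = 0.00323, edgeR) and came under the limit of 1 without control replicate 2 or LL37 replicate 2. Cd55, which protects cells from complement, fell by 1.36 (adjusted p = 0.000211, edgeR). C5ar1 in LL37 + RAPA skin was still above control (2.07, adjusted p = 0.00582, edgeR).

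The relatives of resistin moved in opposite directions. Of 4 tested genes of the family and its candidate receptors, 2 rose and 1 fell in LL37 against control skin (all tested genes: 8.73% and 10.8%). The median log2 fold change was 1.09. Against LL37 + RAPA skin, 1 was lower (all tested genes: 5.8%), with a median of 0.47. Retnla (resistin like alpha) read 83.5, 80.9 and 74.7 CPM in control, 0.762, 0.245 and 5.42 in LL37 and 33.1, 5.94 and 5.23 in LL37 + RAPA replicates, a log2 fold change of -5.14 (adjusted p = 0.000876, edgeR) against control. Against LL37 + RAPA it was -2.70 (adjusted p = 0.04, edgeR), a call lost without any 1 of 8 libraries (control replicates 1 to 3, control + RAPA replicates 1 and 3, LL37 replicates 1 and 2 and LL37 + RAPA replicate 1, adjusted p from 0.0536 to 0.243). The call was also lost when only the groups compared were fitted (adjusted p = 0.139, edgeR) or with blocking on the replicate number (0.0621). Retnlg (resistin like gamma), found in neutrophils, read 31.5, 73.8 and 3.34 CPM in LL37 and at most 1.05 in control libraries, a log2 fold change of 6.52 (adjusted p = 0.00261, edgeR), and LL37 against LL37 + RAPA gave 2.32 (adjusted p = 0.11, edgeR). Of 8 tested neutrophil genes, 7 rose in LL37 against control skin, and their part in Retnlg was not tested.

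Among 15 other secreted products of fat tissue, 4 rose and 3 fell in LL37 against control skin (all tested genes: 8.73% and 10.8%). Against LL37 + RAPA skin, 3 were higher and 2 lower (all tested genes: 4.33% and 5.8%), with medians of 0.06 and 0.03. Apln (apelin) rose by 4.07 (adjusted p = 7.25e-06, edgeR) and Il6 (interleukin 6) by 6.62 (adjusted p = 0.000698, edgeR), Il6 from 0.212 ± 0.110 CPM. Agt (angiotensinogen) fell by 2.28 (adjusted p = 0.00387, edgeR) and Sfrp5, an inhibitor of Wnt signaling, by 2.44 (adjusted p = 0.000777, edgeR). Apln was above control in LL37 + RAPA skin too (2.74, adjusted p = 0.000262, edgeR), whereas Agt gave 0.19 (adjusted p = 0.847, edgeR).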

How the data were processed

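RNA of 12 skin libraries was sequenced as paired-end reads, and the authors deposited raw read counts per Ensembl gene without normalization. Their methods name HTSeq for counting, while the submitters' processing notes name HISAT2 2.0.5, featureCounts 1.5.0-p3 and the build mm10, so the counter and its strand setting are not settled. Of 52636 genes, 52489 had a symbol in GENCODE M21. Counts were fitted in R 4.3.3 with edgeR 4.0.16 (TMM, filterByExpr by group, quasi-likelihood F-test, all 12 libraries in 1 fit), which left 17993 genes. Alternatives were DESeq2 1.42.0, other scalings and filters, blocking on the replicate number and omitting single libraries. Log2 CPM used a prior count of 2. The code was tested on simulated data. The members and gene lists were chosen with earlier results of these data known. Genes named were the members, a fixed set of receptors and relatives, up to 4 DEGs of each list per comparison with the smallest p, and the 5 genes most like Lep or 3 most like each other member. Cebpa, Pparg, Cd36, Lpl, Cidec, Fabp4 and Lrrc61 are exceptions, named after their values were seen. One gene that the rule names is not reported here.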

Additional observations from a re-analysis of the deposited data

Results flagged for a closer look

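The LL37 effect differed with and without RAPA by the test of the interaction for 4 of the 6 genes tested. Of all tested genes, 1.73% had a negative and 0.65% a positive interaction that passed. With 1 library left out at a time, the count of 4 ranged from 0 to 5 and was 0 in 6 fits. The LL37 effect without RAPA minus that with RAPA was -1.57 for Lepr, -2.48 for Adipoq, -1.97 for Retn and -1.91 for Rbp4 on the log2 scale. With 3 libraries in each group, no test for single outlying libraries was made.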

How the results depend on the processing

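Each member's fold changes were recomputed under other settings. Among 833 alternative values, 769 kept direction and side of the threshold, 44 lost a call, 1 gained one, 17 changed sign, all for values that were not DEGs, and 2 moved (Lep without control + RAPA replicate 2, -3.93 in the interaction and 2.20 in LL37 + RAPA against control + RAPA). Replicate numbers did not pair the libraries (correlations of deviations from -0.188 to 0.263, 4 of 18 above 0.1). With the replicate block, the count of members in the interaction fell from 4 to 1, and no other count of members changed. Interaction DEGs over all tested genes fell from 429 to 199 in that fit. With 1 library left out at a time the count of members in the interaction ranged from 0 to 5. Cfd in LL37 + RAPA against control changed sign with library size only (0.12), without the filter (0.00273), with at least 10 counts in every library (0.0116) and with the replicate block (0.0289), and ranged from -0.34 to 0.27 with 1 library left out. With 1 library left out, sign changes also came in control + RAPA against control for Lepr (-0.13 to 0.0504), Adipoq (-0.0572 to 0.56), Cfd (-0.401 to 0.453) and Rarres2 (-0.297 to 0.235), and for Cfd in LL37 + RAPA against control + RAPA (-0.424 to 0.386). Library size alone moved the median of all genes by 0.13 and 0.19 (log2) for LL37 + RAPA against control and against control + RAPA and by -0.10 in the interaction, and the share of DEGs that were higher to 44.6%, 62.7% and 18.8%. For the other named genes 2847 of 3108 values kept their side and 261 lost a call, with no sign change. Counts of 32 to 82 per library limit Lep in LL37 skin.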
